A study of Mus musculus with 15 samples.

Results

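Cd24a, Cd44, Prom1, Procr, Kit, Sox9 and Sox10 are 7 genes used to mark stem and progenitor cells of the mammary gland. They were chosen by symbol, and all 7 were among the 17271 genes measured by poly(A) RNA-seq in 15 mouse mammary tumours. Every sample is labelled p53-NULL, strain Balbc. The tumours came from 4 models: 2151R gave 4 samples, 2208L gave 8, 2225L gave 2 and T11 gave 1. Within 2208L, 4 titles carry PBS, 3 carry 3day nt and 1 carries ROSEN. The titles of 2151R replicates 1 and 2 carry codes whose meaning is not given, and those of replicates 3 and 4 carry NT. In 2225L, the title of replicate 1 carries T-Vivo and that of replicate 2 ROSEN; libraries without ROSEN are named CP. The age of the mice is not in the labels, and nothing there says that samples of a model came from separate animals, so p-values measure the spread between these samples. T11 has no replicate, and its values are given without a test.

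The mammary gland holds an outer basal layer and an inner luminal layer, and stem and progenitor cells of each are sorted by surface proteins. Cd24a encodes a small glycoprotein anchored to the membrane, and Cd44 the receptor for hyaluronan; cells low in the first and high in the second are a classical tumour-initiating fraction in human breast cancer. Prom1 encodes the pentaspan protein CD133, Procr the endothelial protein C receptor, which marks a basal stem cell in the mouse gland, and Kit a receptor tyrosine kinase that marks luminal progenitors. Sox9 and Sox10 encode related transcription factors of the SoxE group, and Sox10 is also the regulator of neural crest and glial cells.

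The values are log2 values that the authors centred per gene on a median, so each is a log2 ratio to an unstated level of the same gene. A difference of 1 is a 2-fold ratio, and levels of different genes cannot be ranked. Replicate 3 of 2151R and replicates 6 and 8 of 2208L had high values of 8 skeletal muscle genes. Their mean was 7.63, 10.67 and 10.13 in that order, against -3.55 to 3.17 in the other 12 samples. Of 8 genes of mammary tumour epithelium, 6 were called lower in 2151R than in 2208L and the keratin genes Krt5 (4.73) and Krt19 (3.61) higher, where 22.7% of all genes were called lower and 26.1% higher. In T11 all 8 lay below the mean of 2208L.

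The comparison of the models asked how these markers differ between tumours that share the loss of p53. Between 2151R and 2208L, 5 of the 7 genes were called different, Cd44 and Procr upward in 2151R and Prom1, Kit and Sox10 downward, while Cd24a and Sox9 were not called. A gene was called where limma, fitted to all genes, gave a Benjamini-Hochberg adjusted p under 0.05. Of all 17271 genes, 48.8% were called in this comparison, 26.1% as higher and 22.7% as lower. The share of called members is therefore to be read against a background in which about as many genes differ as do not. The median size of the difference, without its sign, was 2.52 over the 7 genes and 0.678 over all genes. Between 2225L and 2151R it was 2.89 against 0.933 over all genes. It was smaller than over all genes between 2225L and 2208L (0.378 against 0.632). The same held between the PBS and 3day nt samples of 2208L (0.298 against 0.468). The 7 genes were chosen with earlier results of these data known. The library numbers of the 4 samples of 2151R run together and apart from those of the other models, so an effect of library preparation cannot be told apart from one of the model. In bulk tumours, fewer cells of a type and less RNA per cell cannot be told apart either.

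Between 2225L and 2208L, 2 of the 7 genes were called, Cd44 and Prom1, both lower in 2225L, where 32.9% of all genes were called (17.3% as lower). Between 2225L and 2151R, 5 were called, with Prom1, Kit and Sox10 higher and Cd44 and Procr lower in 2225L, against 48.6% of all genes (22.8% higher and 25.8% lower). The 3 comparisons share samples in pairs and are not independent. The groups did not overlap for any of the called members in these 3 comparisons, as was the case for 38.8%, 31.7% and 62.4% of all genes.

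**Figure D1:**
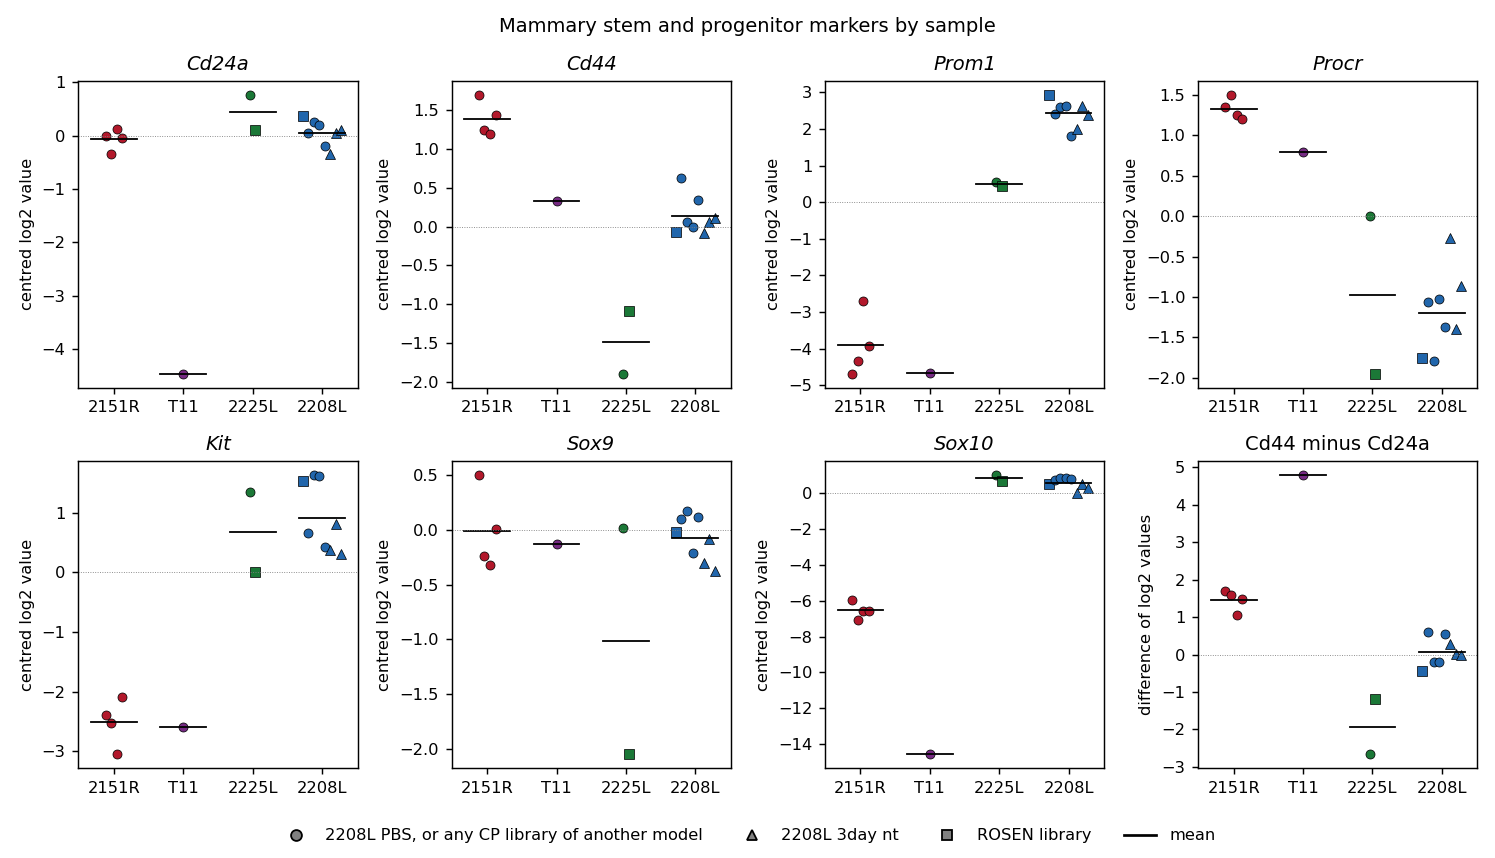
Centred log2 value (vertical axis) of each of the 7 genes in the 15 samples, by model, with the mean of a model as a line; the last panel shows Cd44 minus Cd24a within a sample. Prom1, Kit and Sox10 lie low in 2151R and T11, Cd24a lies apart in T11 only (-4.46), and Sox9 lies apart in 1 sample of 2225L only (-2.05).

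Of the surface glycoproteins, Cd24a (chr10:43578284-43584265, plus strand, GRCm38) had values of 0.00, -0.35, 0.12 and -0.05 in replicates 1 to 4 of 2151R. It was 0.76 and 0.11 in the 2 samples of 2225L, and the 8 samples of 2208L ran from -0.35 to 0.36 with a median of 0.08. In T11 it was -4.46. The 3 replicated models overlapped, and T11 lay below them all (difference from the mean -4.39 for 2151R and -4.51 for 2208L). The difference of 2151R from 2208L was -0.12 (95% confidence interval -0.49 to 0.24, limma adjusted p 0.561), and that of 2225L from 2208L was 0.38 (-0.09 to 0.85, adjusted p 0.203). With the CP libraries alone, which leaves replicate 1 of 2225L, Cd24a was called higher in 2225L (0.74, adjusted p 0.0409 against 2208L).

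Cd44 (chr2:102811141-102901665, minus strand) was 1.70, 1.25, 1.19 and 1.44 in 2151R and 0.33 in T11. It was -1.90 and -1.09 in 2225L, and in 2208L it ran from -0.08 to 0.63 with a median of 0.06. The order was therefore 2151R, T11, 2208L and 2225L, but the T11 value lay within the range of 2208L. Cd44 was higher in 2151R than in 2208L by 1.26 (SE 0.18, limma adjusted p 7.79e-05). It was lower in 2225L than in 2208L (difference -1.63, SE 0.24, adjusted p 0.000207) and than in 2151R (difference -2.89, SE 0.26, adjusted p 1.34e-06). These 3 calls were kept in all alternatives that were run. The gene overlaps the small nuclear RNA gene Gm23731, which is not among the measured genes, as Prom1 does Gm42716 and the antisense Gm16401.

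Taken within each sample, Cd44 minus Cd24a in 2151R was 1.46 ± 0.281 (SD, n = 4). In 2208L it was 0.08 ± 0.367 (SD, n = 8), and the samples of 2225L were at -2.66 and -1.20. It was 4.79 in T11. The difference in T11 came from a low Cd24a at an intermediate Cd44, and that in 2151R from a high Cd44 at a Cd24a that overlapped the other models. Since each gene is centred on its own level, the sign of this value does not say which transcript was more abundant.

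Prom1 (chr5:43993620-44102032, minus strand) was -4.69, -4.34, -2.71 and -3.92 in 2151R and -4.67 in T11. In 2225L it was 0.54 and 0.44, and in 2208L it ran from 1.81 to 2.93 with a median of 2.51. Its order was 2208L, 2225L and then 2151R, with no overlap between these models and T11 within the range of 2151R. It was lower in 2151R than in 2208L (difference -6.34, SE 0.31, limma adjusted p 2.5e-09). Between 2225L and 2208L the difference was -1.94 (SE 0.41, adjusted p 0.00266), a call lost with sample weights (-2.04, adjusted p 0.11). Prom2, the paralogue of Prom1, had another order: it was higher in 2225L than in 2208L by 2.68 (SE 0.63, adjusted p 0.00542), while 2151R differed from 2208L by -1.14 (adjusted p 0.0672). That last difference passed the threshold with quantile normalization (-1.18, adjusted p 0.0496), without replicate 4 of 2151R (-1.63) and without replicate 8 of 2208L (-1.30). In T11 Prom2 was -7.02, below every other sample.

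Procr (chr2:155751117-155755471, plus strand) was 1.35, 1.5, 1.25 and 1.20 in 2151R and 0.79 in T11. The samples of 2225L lay far apart, at 0.00 (CP library) and -1.95 (ROSEN library), and 2208L ran from -1.79 to -0.27 with a median of -1.21. It was higher in 2151R than in 2208L by 2.52 (SE 0.34, limma adjusted p 3.88e-05) and lower in 2225L than in 2151R (difference -2.30, SE 0.48, adjusted p 0.00151). The latter was -3.27 without replicate 1 of 2225L and -1.33 (adjusted p 0.0384) without replicate 2. The difference between 2225L and 2208L was 0.22 (95% confidence interval -0.72 to 1.16, adjusted p 0.735), and it was -0.75 without replicate 1 of 2225L and 1.19 without replicate 2.

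Promoter sequences were at hand for Cd44, Procr, Prom1 and Kit, from RefSeq on GRCm38.p6. The 250 bases before the RefSeq start are shown for Prom1 and Procr, the strongest movers of these 4 in either direction between 2151R and 2208L. These starts lie inside the GENCODE spans given above, so all of the Prom1 window and the end of the Procr window fall within those spans. The E-box CANNTG, the word bound by basic helix-loop-helix factors and, as CACCTG, by the Zeb and Snai repressors, is in capitals. Both run 5′ to 3′, Prom1 on the minus strand of chr5:44101737-44101986 and Procr on the plus strand of chr2:155750967-155751216.
Prom1: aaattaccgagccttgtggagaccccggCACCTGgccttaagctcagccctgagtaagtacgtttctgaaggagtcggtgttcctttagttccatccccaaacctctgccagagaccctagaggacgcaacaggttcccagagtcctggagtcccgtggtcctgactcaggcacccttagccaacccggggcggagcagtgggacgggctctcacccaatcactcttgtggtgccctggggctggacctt
Procr: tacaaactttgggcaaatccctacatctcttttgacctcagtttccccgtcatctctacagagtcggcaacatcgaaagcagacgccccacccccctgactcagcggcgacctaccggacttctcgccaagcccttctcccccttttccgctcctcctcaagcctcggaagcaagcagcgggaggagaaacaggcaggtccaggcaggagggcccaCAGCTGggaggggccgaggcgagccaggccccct
The window of Prom1 holds 1 E-box, a CACCTG whose first base lies 222 bases before the RefSeq start. That of Procr holds 1, a CAGCTG at 34 bases before its RefSeq start. Both words lie inside the gene by the GENCODE spans. CACCTG or its reverse complement CAGGTG occurs in 16.2% of 15382 such windows of genes in the table, and CANNTG, which includes it, in 59.0%. The windows of Cd44 and Kit, and that of a second start of Prom1, hold no CANNTG. The Sox word AACAAT (or ATTGTT), in 5.5% of windows, is in none of those of the 4 genes. A match is only a stretch of letters, and a window without one says nothing about the binding of a factor.

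Kit (chr5:75574916-75656722, plus strand) was -2.40, -2.53, -3.05 and -2.09 in 2151R and -2.60 in T11. It was 1.35 and 0.00 in 2225L, and in 2208L it ran from 0.30 to 1.63 with a median of 0.74. All samples of 2151R and T11 lay at least 2 log2 units below all others, and 2225L overlapped 2208L. Kit was lower in 2151R than in 2208L (difference -3.44, SE 0.34, limma adjusted p 2.37e-06) and higher in 2225L than in 2151R by 3.19 (SE 0.48, adjusted p 0.000125). The difference between 2225L and 2208L was -0.24 (95% confidence interval -1.19 to 0.70, adjusted p 0.707). Kitl, which encodes the ligand of Kit, differed between 2151R and 2208L by -0.49 (SE 0.29, adjusted p 0.178), which passed the threshold with sample weights (-0.77, adjusted p 0.00445). In T11 Kitl was -1.28, below all other samples.

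Sox9 (chr11:112782224-112787760, plus strand) was 0.50, -0.24, -0.32 and 0.01 in 2151R, -0.13 in T11, and from -0.38 to 0.17 with a median of -0.05 in 2208L. In 2225L it was 0.02 in the CP library and -2.05 in the ROSEN library, while the ROSEN library of 2208L was at -0.02. These values overlapped between all models but for the single low sample of 2225L. The difference of 2151R from 2208L was 0.06 (95% confidence interval -0.58 to 0.71, limma adjusted p 0.88). That of 2225L from 2208L was -0.94 (adjusted p 0.0793), and without replicate 1 of 2225L it was -1.97 (adjusted p 0.000519) and without replicate 2 it was 0.097. Against 2151R it was -1.0 (adjusted p 0.0663), and -2.03 (adjusted p 0.000235) and 0.036 in the same order, so the Sox9 value of 2225L rests on which of its samples is used.

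Sox10 (chr15:79154908-79165240, minus strand) was -5.98, -7.05, -6.55 and -6.58 in 2151R. It was 1.0 and 0.67 in 2225L, and in 2208L it ran from 0.00 to 0.87 with a median of 0.62. In T11 it was -14.55, the lowest of all values in the table, so what it stands for beyond a very low or absent signal is not known. Sox10 was lower in 2151R than in 2208L (difference -7.11, SE 0.21, limma adjusted p 2.09e-11) and higher in 2225L than in 2151R by 7.38 (SE 0.29, adjusted p 1.29e-09). Between 2225L and 2208L the difference was 0.27 (95% confidence interval -0.31 to 0.85, adjusted p 0.472). Sox8, the remaining SoxE gene, was also lower in 2151R than in 2208L (difference -9.16, SE 0.26, adjusted p 1.67e-11), but in T11 it was -3.78, above all samples of 2151R (-8.77 to -7.42). The 3 SoxE genes thus had 3 patterns, with Sox10 lowest in T11, Sox8 lowest in 2151R and Sox9 overlapping in both.

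**Figure D2:**
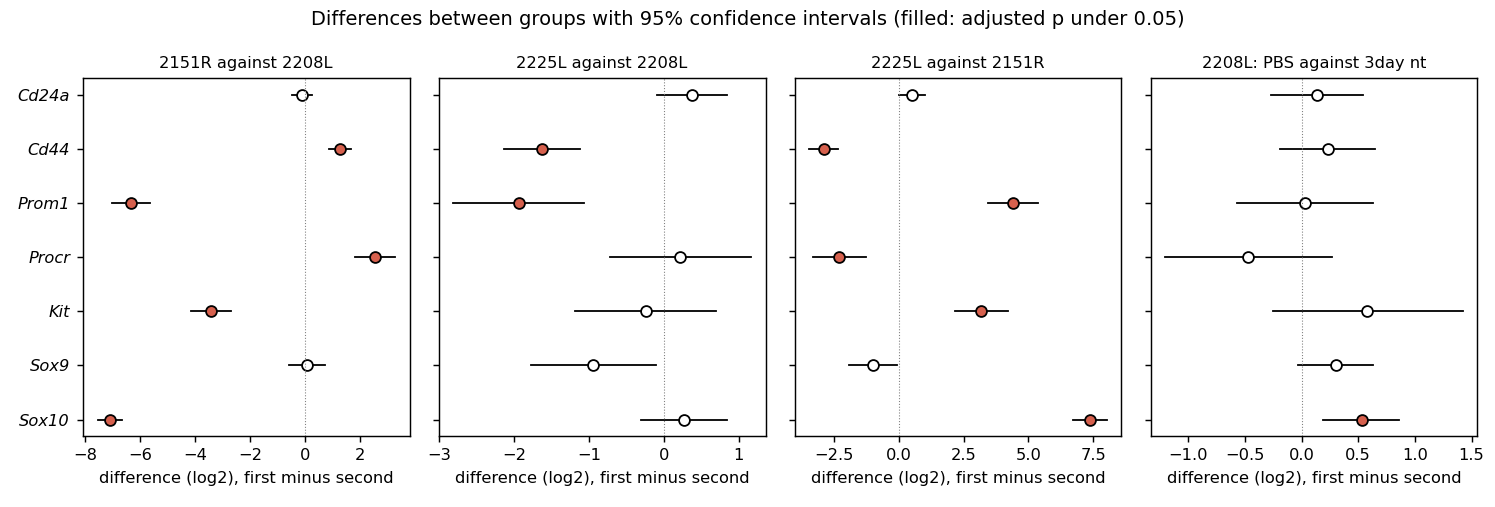
Difference between group means (log2, horizontal axis) of the 7 genes in 4 comparisons, with 95% confidence intervals from limma and filled points for an adjusted p under 0.05; the scales of the panels differ. Sox10 and Prom1 show the widest differences between 2151R and 2208L (-7.11 and -6.34), and within 2208L only Sox10 is filled (0.53).

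The pooled spread within models was small beside the called differences between models, but not beside most of those that were not called. In 2225L alone, with 2 samples, the SD was 1.38 for Procr, 1.46 for Sox9 and 0.956 for Kit, but 0.068 for Prom1 and 0.235 for Sox10. The SD within the 3 replicated models was 0.255 for Cd24a, 0.286 for Cd44, 0.337 for Sox10, 0.509 for Sox9, 0.537 for Prom1, 0.58 for Procr and 0.584 for Kit, where the median over all genes was 0.418. Model membership held 99.2% of the variance of Sox10, 97.1% of that of Prom1, 92.7% of that of Cd44, 89.8% of that of Kit and 82.6% of that of Procr over 14 samples. For Cd24a and Sox9 it held 32.5% and 35.8%, below the median over all genes of 58.5%. T11, in which Cd24a was low, is not part of these shares.

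Within 2208L, the PBS and 3day nt samples were compared. Of the 7 genes, 1 was called, Sox10, where 34% of all genes were called (17.4% as higher in PBS). Sox10 was 0.73, 0.82, 0.87 and 0.77 in the PBS samples and 0.00, 0.51 and 0.31 in the 3day nt samples, with no overlap, and 44.8% of all genes did not overlap here. The difference was 0.53 (SE 0.14, limma adjusted p 0.0308). The call was lost without any one of replicates 2, 3, 4, 6 and 8 of 2208L (differences of 0.55, 0.52, 0.50, 0.39 and 0.54), and without the 2 muscle-rich samples the difference was 0.29 (adjusted p 0.4). Of 9 genes of the Sox10 programme of neural crest and glia, 2 were called higher in PBS, Erbb3 (1.04, SE 0.25, adjusted p 0.0206) and Cdh19 (2.23, SE 0.31, adjusted p 0.00517), and 1 lower, Mia (-0.47, SE 0.14, adjusted p 0.0413). The list median was -0.14, beside -0.05 over all genes. Kitl was higher in PBS by 0.99 (SE 0.24, adjusted p 0.0208). Without the 2 muscle-rich samples, which leaves 1 sample of 3day nt, the differences were 0.63 for Erbb3 (adjusted p 0.328), 2.18 for Cdh19 (adjusted p 0.147), -0.45 for Mia (adjusted p 0.36) and 0.87 for Kitl (adjusted p 0.311), and none was called. The calls of Erbb3, Mia and Kitl were also lost without any one of replicates 2, 3, 6 and 8, and that of Mia without replicate 7. Kit differed by 0.58 (95% confidence interval -0.25 to 1.42, adjusted p 0.228). Library numbers of the PBS and 3day nt samples do not overlap either, so that preparation and subset cannot be told apart.

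Genes tied to the members were taken as lists chosen for their known roles. Their counts are to be read against all genes, of which 26.1% were called higher in 2151R against 2208L and 22.7% were called lower. For 2225L against 2208L these shares were 15.6% and 17.3%. Among 17 ligands and partners, 5 were higher in 2151R and 5 were higher in 2208L, with a list median of -0.32 beside 0.10 for all genes. The lowest were Esrp1 (difference -6.68, SE 0.18) and Esrp2 (-6.45, SE 0.17), splicing factors that set which Cd44 isoform epithelial cells make. The table gives 1 value a gene, so the isoforms of Cd44 could not be compared. In T11 Esrp1 was -13.37, the second lowest value of the table. Of the same list, Spp1, whose product osteopontin binds Cd44, was lower in 2151R (-3.65) and in 2225L (-4.97) than in 2208L. Has2, which makes hyaluronan, was higher in both than in 2208L (1.0 and 2.76). Has3, which also makes hyaluronan, was lower in 2151R (-1.59) and not called in 2225L (1.44). Has1, the other such gene of the list, was called in neither (1.16 and -1.52). Spp1 and the Has genes were picked after their values were seen.

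Among 6 Sox relatives and cofactors, 4 were lower in 2151R than in 2208L and 1 was higher, with a list median of -4.07. The lowest were Sox8 and Pax3, a neural crest factor (difference -5.84, SE 0.78), but the 4 samples of 2151R and T11 share 1 exact value of Pax3 (-3.77), so its size rests on a repeated value. Snai2, which acts with Sox9 in mammary stem cells, was 0.08 apart between 2151R and 2208L (adjusted p 0.867); with quantile normalization this was 0.93 (adjusted p 0.00916). Snai2 was higher in 2225L than in 2208L by 2.90 (SE 0.46, adjusted p 0.000386), and in T11 it was 0.77, above every sample of the other models.

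Of 6 measured genes that Sox9 drives in cartilage, 5 were lower in 2151R than in 2208L and none was called higher (list median -4.69), among them the collagen genes Col9a1 (difference -8.68, SE 0.41) and Col9a2 (-5.30, SE 0.42), although Sox9 itself was not called. Between 2225L and 2208L, 2 were higher and 2 lower (median 0.44). The list mean was 0.30 in replicate 1 of 2225L and 2.95 in replicate 2, the ROSEN library. These lay on either side of 2208L (0.84 to 1.68), with the higher mean in the sample of lower Sox9. Of 9 genes of the Sox10 programme of neural crest and glia, 5 were lower and 1 higher in 2151R (median -0.79), with Mia at -8.57 (SE 0.56) and Erbb3 at -5.45 (SE 0.34). In 2225L, 4 of them were higher and 1 lower than in 2208L (median 1.20). Here too the samples of 2225L lay apart. The list mean was 0.56 in replicate 1, within the range of 2208L (-0.03 to 1.44), and 2.42 in replicate 2, above it.

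The lineage lists had different counts. Of 9 luminal progenitor genes, 6 were lower in 2151R than in 2208L and none was called higher (median -3.27, against 0.10 over all genes), among them Slpi, a protease inhibitor (-6.62, SE 0.52), and Ehf, an epithelial Ets factor (-5.99, SE 0.28). Of 16 basal and stem-enriched genes, 9 were lower and 4 higher in 2151R (median -1.19), with Krt5, a basal keratin, higher by 4.73 (SE 1.1) and Tspan8 lower (-3.18, SE 0.65). At Krt5, 2 samples share an exact value and the groups overlapped. In 2225L, 10 of these 16 were higher than in 2208L and 1 was lower (median 1.57), with Krt5 at 9.81 (SE 1.4), while of the luminal progenitor genes 4 were lower and none was called higher (median -1.31).

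Of 12 mature luminal genes, 2151R had 4 at a higher level than 2208L, among them the progesterone receptor gene Pgr (4.16, SE 0.71), and 2 at a lower one, among them Krt8 (-6.27, SE 0.36), with a median of 0.64. Of 12 other markers of tumour-initiating cells, 4 were higher and 3 lower in 2151R (median 0.24, against 0.10 over all genes), shares near those of all genes, with Sox2, a pluripotency factor, at 8.60 (SE 0.68) and Epcam at -6.58 (SE 0.26). Sox2 lies within the longer non-coding gene Sox2ot, and how reads of overlapping genes were assigned is not stated. In T11 Sox2 was 3.30, and Epcam was -9.83, differences of 7.80 and -10.71 from the means of 2208L. Markers often listed together thus lay on opposite sides in 2151R, with Cd44, Procr and Sox2 high and Prom1, Kit and Epcam low.

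**Figure D3:**
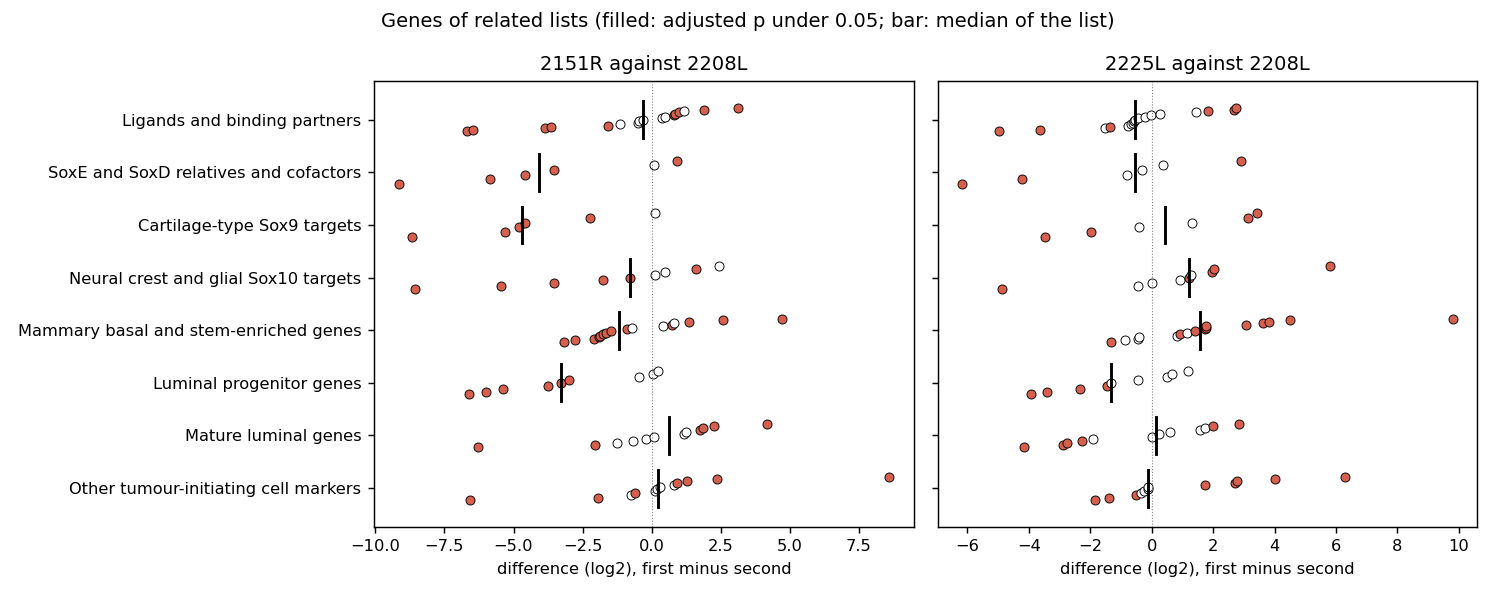
Difference (log2, horizontal axis) of each gene in 8 related lists for 2151R and 2225L against 2208L; filled points have an adjusted p under 0.05 and the bar is the median of the list. The luminal progenitor and cartilage-type lists have medians of -3.27 and -4.69 in 2151R, and the basal and stem-enriched list one of 1.57 in 2225L.

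Other cells of a tumour also make some of these transcripts. Kit marks mast cells, and 5 of 6 measured mast cell genes had a higher value in 2151R than in 2208L, with Tpsab1, a tryptase, at 6.84 (SE 1.0) and Cpa3, a carboxypeptidase, at 5.66 (SE 1.0). Their mean ran from 2.98 to 3.80 in 2151R, from -4.37 to 1.37 in 2208L, from -2.11 to -1.13 in 2225L and was -1.62 in T11. In the same samples Kit ran from -3.05 to -2.09 in 2151R and from 0.30 to 1.63 in 2208L. Procr is made by endothelium, and 6 of 8 endothelial transcripts were called higher in 2151R against 2208L, with Tek and Cdh5 each at 1.52; neither passed the threshold once 2151R and 2208L were limited to titles with NT, nt or PBS (1.35 and 1.30).

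The endothelial mean ran from 0.19 to 0.77 in 2151R and from -1.24 to 0.19 in 2208L, and was 0.53 in T11 and 0.23 and -0.89 in 2225L. In 2208L replicate 6, a muscle-rich sample, had the highest endothelial mean (0.19) and the highest Procr (-0.27). In 2151R replicate 2 had the highest endothelial mean (0.77) and the highest Procr (1.5). Replicate 4 of 2151R had the second highest mean (0.67) and the lowest Procr (1.20). Procr minus the endothelial mean in the 2151R samples was 0.86 ± 0.279 (SD, n = 4), against -0.64 ± 0.249 (SD, n = 8) in those of 2208L. This difference of 1.49 had an exact two-sided permutation p of 0.00202, the smallest that 4 against 8 samples allow. The groups did not overlap, as was already so for Procr alone and for 38.8% of all genes in this comparison. The subtraction was chosen after the values were seen in these samples, so this p is a description and not a fresh test. The difference of 1.49 is smaller than that of Procr alone (2.52). The subtracted value was 0.26 in T11 and -0.23 and -1.06 in 2225L.

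Cd44 is made by leukocytes, and of 8 leukocyte genes, against 2208L, 2 were higher and 1 was lower in 2151R, and 5 were lower in 2225L. Their mean ran from -0.10 to 0.43 in 2151R and from -1.31 to 0.46 in 2208L, and was -2.23 and -0.35 in 2225L and 0.72 in T11. Cd44 minus this mean in the 2151R samples was 1.16 ± 0.144 (SD, n = 4), against 0.31 ± 0.789 (SD, n = 8) in those of 2208L, with a difference of 0.85 (exact two-sided permutation p 0.0687) and overlapping groups. It was 0.33 and -0.75 in 2225L, the first within the range of 2208L (-0.49 to 1.66), and -0.39 in T11. This subtraction was also chosen after the values were seen, so its p is a description too. For Sox10, 5 of 10 Schwann cell and melanocyte genes were in the table, and 1 was higher and 1 lower in 2151R. For Cd24a, none of 7 B cell and erythroid genes was called between 2151R and 2208L by limma, and 0 had an unadjusted p under 0.05. Of 8 fibroblast genes, 3 were higher in 2151R, with Dcn at 3.56 (SE 0.71) and Pdpn at 3.27 (SE 0.39). The part of these cells in the values of the members was not tested.

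**Figure D4:**
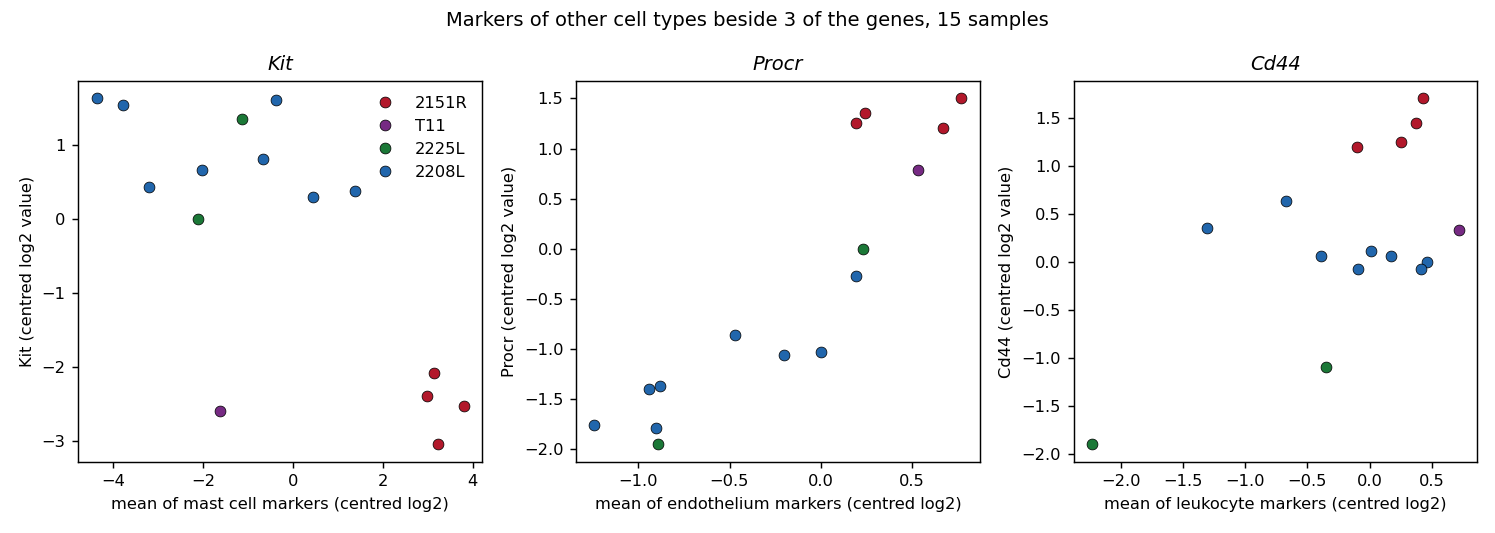
Kit, Procr and Cd44 (vertical axes, centred log2 value) against the mean of the markers of mast cells, endothelium and leukocytes (horizontal axes, centred log2) in the 15 samples. The 4 samples of 2151R have mast cell means from 2.98 to 3.80 and Kit values of -3.05 to -2.09, and their endothelial means lie between 0.19 and 0.77.

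The genes whose values were most like those of a member over the 15 samples were sought by Pearson correlation, given as a description because the samples fall into 4 models. For Sox10 they were Esrp1 (r = 0.998) and Ehf (0.998), and for Prom1 Llgl2 (0.992) and Lad1 (0.987). For Kit they were Erbb2 (0.983) and Dusp8 (0.976), for Cd44 Gbp2 (0.977) and Wnt7b (0.976), and for Procr Rnd1 (0.975) and Pbld1 (0.973). These values stayed between 0.971 and 0.997 over the 14 samples without T11. For Sox9 they were Nr2c1 (0.921) and Klf5 (0.911), neither of them called in the comparisons between models. Sox9 was -2.05 in replicate 2 of 2225L and from -0.38 to 0.50 in all other samples. Its correlations were not computed without that replicate, so how far they rest on it is not known. For Cd24a they were Sh3tc2 (0.955) and Ezh2 (0.937), but without T11 these fell to 0.373 and 0.696, so the likeness to Sh3tc2 rests on T11.

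The nearest measured genes on each side were set beside the members, from GENCODE M21 on GRCm38. Of the 28 neighbours, 14 were called between 2151R and 2208L, 6 higher and 8 lower, a share near the 48.8% over all genes. Kit lies between Pdgfra and Kdr, 2 other receptor kinase genes, and both were higher in 2151R (2.10, adjusted p 0.000648, and 1.40, adjusted p 0.00159), while Kit was lower. None of the 4 neighbours of Procr was called. Next to Sox10, Gm10863, a non-coding gene on the opposite strand whose start lies 801 bases away, was lower (difference -2.56, adjusted p 6.86e-05), as was Pick1 (-1.56, adjusted p 3.35e-06). On the other side of Sox10, Polr2f was not called (-0.11, adjusted p 0.784) and 1700088E04Rik was higher (0.78, limma adjusted p 0.000197).

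Sox9 was not called, while its nearest neighbours were. BC006965, a non-coding gene on the opposite strand that starts 248 bases before Sox9, was lower in 2151R than in 2208L (difference -6.15, adjusted p 1.03e-10), and so was the non-coding 2610035D17Rik on its other side (-4.42, adjusted p 1.76e-09). The next genes out, Kcnj2 (0.25, adjusted p 0.685) and Slc39a11 (0.50, adjusted p 0.0334), differed by less. BC006965 in the 2151R samples was -5.90 ± 0.497 (SD, n = 4), against -9.13 in T11 and 0.26 ± 0.173 (SD, n = 8) in those of 2208L. Sox9 minus BC006965 in the 2151R samples was 5.88 ± 0.369 (SD, n = 4), against -0.33 ± 0.232 (SD, n = 8) in those of 2208L, a pair chosen after the values were seen and given without a test. It was 9.0 in T11 and -0.88 and -2.05 in 2225L. Whether reads were counted by strand is not stated, and BC006965 and Sox9 do not overlap in the annotation.

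**Figure D5:**
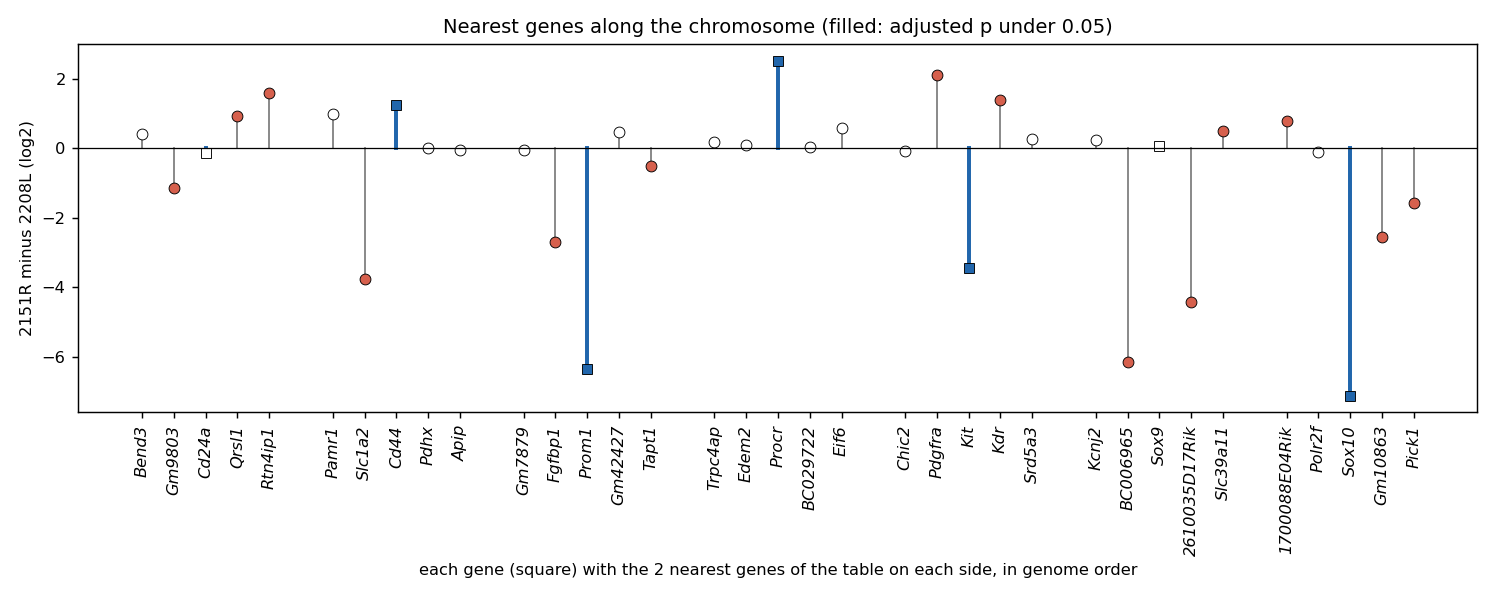
Difference of 2151R from 2208L (log2, vertical axis) of each member (square) and the 2 nearest measured genes on each side (circles) in genome order, filled for an adjusted p under 0.05. Sox9 (0.06) stands between BC006965 (-6.15) and 2610035D17Rik (-4.42), and Kit (-3.44) between Pdgfra (2.10) and Kdr (1.40).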

How the data were processed

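RNA came from an RNeasy kit, and a TruSeq mRNA kit gave the poly(A) libraries, per the labels' protocols. The submitters' processing notes name STAR, Salmon and the build mm10, without versions or roles. The authors deposited 1 table of log2 values, centred per gene on a median; over which samples, and with what offset before the logarithm, is not given in the sources used here. It holds no counts, so the depth per sample is unknown and no counting interval can be given. In 727 genes (4.21%), none of them one of the 7 described, samples share an exact value.

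Differences were tested on the log2 values as deposited with limma 3.58.1 in R 4.3.3. The 3 comparisons between models came from 1 model over the 15 samples, with the 4 tumour models as its terms, so that the spread was shared, and T11 was in that fit but not tested. PBS and 3day nt samples were fitted alone. P-values were adjusted by the Benjamini-Hochberg method over all 17271 genes and called under 0.05. The fit was run on simulated data with known differences in a small share of the genes and independent noise. In these data 48.8% of genes were called between 2151R and 2208L, so that setting differs and does not vouch for the calls. Alternatives were another scaling, trend or robust variance, sample weights, filters, a minimum difference, subsets of samples and leaving out each replicate. The 7 genes and all lists were chosen with earlier results of these data known. The text names the 7 genes, Kitl, Sox8, Snai2 and Prom2, the 2 most correlated genes and the nearest 2 genes on each side. It also names the 2 called genes of each list with the widest difference between 2151R and 2208L. Krt19, Spp1, Has1, Has2 and Has3 fall outside these choices. Positions are from GENCODE on GRCm38, whose coordinates are those of mm10, and promoters from RefSeq on GRCm38.p6. No blocks were used, since the titles do not number replicates across groups.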

Additional observations from a re-analysis of the deposited data

Results flagged for a closer look

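None of the 7 genes had a sample far from the rest of its group by Dixon's criterion, in the groups of 4 and 8 samples. Among 123 groups tested, over these and the other named genes, 5 had such a sample, where chance gives about 1 in 20, or 6.15. Krt8 was 1.21 in replicate 1 of 2208L, the ROSEN library, against 0.22 to 0.59 in the others. Epcam was 0.50 in PBS replicate 5 of 2208L against 0.84 to 0.89 in the other PBS samples, and Itgax was 1.27 there against 1.78 to 1.83. Cdh19 was -0.04 in replicate 4 of 2151R against 1.59 to 1.90 in the others. Acta1, a skeletal muscle actin, was 6.94 in replicate 3 of 2151R against -5.17 to -4.19 in the others.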

How the results depend on the processing

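The 5 calls between 2151R and 2208L were kept under all 24 alternatives and left-out samples. With a difference of at least 1 required, 2585 genes were higher and 2566 lower in 2151R, and within 2208L 1206 were higher and 1002 lower in PBS, with 0 of the 7. With NT, nt or PBS titles only, 2658 genes were higher in 2151R, and Cd24a (0.023), Sox9 (-0.073) and Snai2 (-0.16) changed sign. With sample weights, Snai2 was -0.21 between 2151R and 2208L; 2225L had 958 genes higher and 1200 lower than 2208L, with 1 of the 7 lower, and 2529 higher and 2723 lower than 2151R; PBS had 5938 higher and 5754 lower, with 3 of the 7 higher (Sox10, Kit and Sox9). With CP libraries only, Snai2 was -0.075 in 2151R, and in 2225L 1 of the 7 was higher than in 2208L, where Kit was 0.52 and Sox9 0.10, and Sox9 was 0.036 against 2151R. Without the muscle-rich samples, PBS had 76 genes higher and 22 lower, with 0 of the 7, and Prom1 was -0.26 and Procr 0.087; this leaves 1 sample of 3day nt.

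Leaving out each replicate gave -0.11 to 0.163 for Sox9 and -0.118 to 0.221 for Snai2 between 2151R and 2208L. Between 2225L and 2208L it gave -0.752 to 1.19 for Procr, -0.921 to 0.431 for Kit and -1.97 to 0.0973 for Sox9, and against 2151R -2.03 to 0.0363 for Sox9. Within 2208L it gave 1362 to 3988 genes higher and 1017 to 3111 lower in PBS, 0 to 1 of the 7 higher, -0.134 to 0.218 for Prom1 and -0.00583 to 0.228 for Cd24a. Where 1 sample of 2225L is left, it is assumed to vary like the other models. Causes were not tested. Other scalings moved the median of all genes by under 0.1. No paired analysis was possible because replicate numbers shared by groups are absent from the titles. Depth is unknown, and 2225L rests on 2 samples.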
